A study of Homo sapiens with 12 samples.

Results

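The 9 genes studied are readers and writers of histone acetylation, followed through 6 hr of THZ1 treatment in a pair of ovarian cancer cell lines. The BET (bromodomain and extra-terminal) genes were BRD2 and BRD3, and the lysine acetyltransferase genes were EP300, CREBBP, KAT2A, KAT2B, KAT5, KAT6A and KAT8. They were chosen by exact row name, with no measured value in the rule. All 9 were found among the 23621 gene rows, and all 9 were among the 14251 active genes, defined as those above 1 FPKM (fragments, corrected for transcript length and for the number sequenced) in at least 1 of the 12 libraries.

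Acetyltransferases place acetyl groups on lysines of histone tails, a mark found at active enhancers and promoters, and BET proteins bind acetylated lysines through paired bromodomains and bring in factors that release RNA polymerase II into elongation. The EP300 and CREBBP proteins are close paralogs that act as co-activators at enhancers. KAT2A and KAT2B (GCN5 and PCAF) alternate in the SAGA and ATAC complexes, and KAT5 (TIP60), KAT6A (MOZ) and KAT8 (MOF) are MYST-family enzymes, each the catalytic subunit of its own complex.

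KURAMOCHI (Ku) and COV362 (Cov) are human ovarian cancer lines, cultured here in RPMI and in DMEM, respectively, with 10% fetal bovine serum and antibiotics. All cells were untransduced and received DMSO (the vehicle), 50 nM THZ1 or 250 nM THZ1, a covalent inhibitor of the transcriptional kinases CDK7, CDK12 and CDK13. Each of the 6 groups held 2 libraries of polyadenylated RNA. The study's description places the duplication at the treatment, without saying whether the cultures were independent or treated on separate days, so p-values measure the spread between these duplicates only, part of which may be technical.

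RNA was adjusted to cell number and mixed with synthetic ERCC spike-in RNAs, and FPKM values were scaled to these spike-ins, so a fall means less mRNA per counted cell. Read depth is unknown, because FPKM values carry no totals, and genes with no signal share a small value of 0.0783 to 0.119 FPKM in each library. Pearson's r between duplicates, taken over active genes, was 0.968 to 0.983. In each line, 5 of 6 serous ovarian and epithelial markers exceeded 1 FPKM in both DMSO libraries. MUC16 was at 0.159 to 0.172 in Ku and WT1 at 0.565 to 0.741 in Cov. Of 7 markers of other cell types, 2 exceeded 1 FPKM in Ku (VWF and COL1A1) and 1 in Cov (COL1A1), with summed levels of 5.86 to 6.51 and 4.56 to 4.65 FPKM in the DMSO libraries. In 250 nM THZ1 these sums were 3.63 to 4.01 in Ku and 1.73 to 2.04 in Cov. Albumin and CD3E were at or near the shared low value in both lines. In such bulk samples, fewer cells of a type and less RNA per cell cannot be told apart.

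Promoters of 4 genes are shown because their mRNAs marked the ends of the range described below: BRD2 had the highest fold change of the members at 50 nM in both lines, KAT5 was the most lowered at 250 nM on the log2(FPKM + 1) scale, KAT2A was one of the pair least lowered at 250 nM (with KAT2B), and BRD3 is the paralog of BRD2. Each is the stretch of 250 bases upstream of the 5′-most transcription start in RefSeq (GRCh38.p14), written 5′ to 3′ on the gene's strand. They are BRD2 (chr6:32968344-32968593, plus strand), BRD3 (chr9:134068027-134068276, minus strand), KAT2A (chr17:42121368-42121617, minus strand) and KAT5 (chr11:65712002-65712251, plus strand). Capitals mark matches on either strand to any of 5 motifs searched: the E-box CACGTG, the GC box GGGCGG, the CCAAT box (its name being its letters), the TATA box TATAAA and the ETS core with letters CGGAAG.
BRD2: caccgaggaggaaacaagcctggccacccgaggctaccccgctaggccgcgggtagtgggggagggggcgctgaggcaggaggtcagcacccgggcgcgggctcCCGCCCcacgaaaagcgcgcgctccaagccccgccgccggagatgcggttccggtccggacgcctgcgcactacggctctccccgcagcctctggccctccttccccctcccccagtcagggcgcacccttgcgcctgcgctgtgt
BRD3: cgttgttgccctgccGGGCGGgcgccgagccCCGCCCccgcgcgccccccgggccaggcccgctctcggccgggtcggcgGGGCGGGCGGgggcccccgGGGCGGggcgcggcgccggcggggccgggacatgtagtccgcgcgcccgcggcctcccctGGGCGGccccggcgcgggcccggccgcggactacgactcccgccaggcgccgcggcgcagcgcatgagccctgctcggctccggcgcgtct
KAT2A: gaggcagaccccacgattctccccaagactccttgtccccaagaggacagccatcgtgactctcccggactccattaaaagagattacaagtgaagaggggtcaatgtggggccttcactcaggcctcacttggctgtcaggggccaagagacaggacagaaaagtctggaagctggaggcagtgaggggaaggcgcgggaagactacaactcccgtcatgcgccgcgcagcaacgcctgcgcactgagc
KAT5: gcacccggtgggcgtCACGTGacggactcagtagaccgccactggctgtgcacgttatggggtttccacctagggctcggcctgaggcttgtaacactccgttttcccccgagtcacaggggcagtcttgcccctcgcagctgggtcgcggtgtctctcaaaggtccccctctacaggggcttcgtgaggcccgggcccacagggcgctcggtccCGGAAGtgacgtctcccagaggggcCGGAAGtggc

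The BRD3 stretch held 6 GC boxes and 48 CpG dinucleotides at 86.8% GC, and that of BRD2 held 1 GC box and 27 CpG at 74% GC. The KAT5 stretch held 1 E-box, the sequence bound by MYC and related factors, and 2 ETS cores, with 19 CpG at 66.4% GC. None of the motifs was found in the KAT2A stretch, which had 11 CpG at 58.8% GC. Of the others matched in RefSeq, CREBBP and KAT2B each held 3 GC boxes, at 72.4% and 80.8% GC, and EP300 held none of the motifs at 76.8% GC. Among all 27305 promoters of this length, 42.2% held a GC box, 16.7% an ETS core, 6.46% an E-box, 33% a CCAAT and 11.2% a TATAAA, with a median GC content of 57.6% and a median of 10 CpG. A match describes letters only.

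Vehicle-treated cells contained mRNA of all 9 genes. BRD2 was the most abundant, at 101.8 ± 8.16 FPKM in Ku and 142.9 ± 9.72 in Cov (mean ± SD, n = 2 throughout), followed by KAT5 at 29.5 ± 3.78 and 66.6 ± 0.465. The remaining 7 had DMSO means of 5.78 to 19.9 FPKM in Ku and 9.28 to 22.3 in Cov. In Ku their order was CREBBP, KAT8, KAT2A, EP300, KAT6A, BRD3 and KAT2B, and the duplicates of KAT2A and EP300, and those of KAT6A and BRD3, overlapped. In Cov the order was CREBBP, KAT8, KAT2A, EP300, BRD3, KAT2B and KAT6A, and the duplicates of CREBBP and KAT8, of KAT8 and KAT2A, and of BRD3 and KAT2B overlapped. FPKM is scaled to transcript length, which allows levels to be set side by side between genes, and the lines were normalized separately, so no test was made between them.

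**Figure D1:**
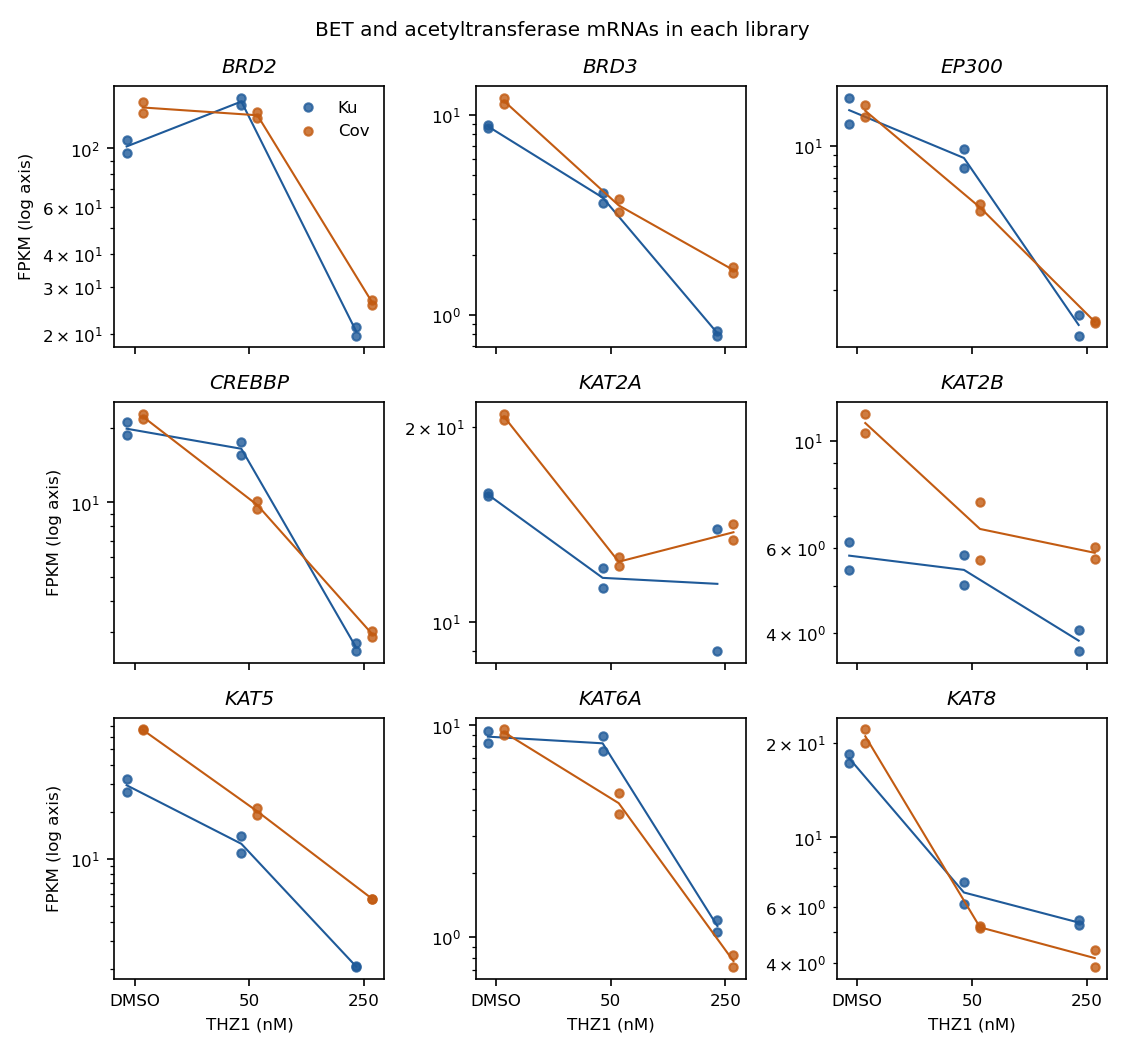
FPKM (log axis) of each of the 9 genes in every library, by THZ1 dose in nM, for Ku and Cov. At 250 nM every library of both lines lay below the DMSO libraries for all 9 genes, whereas BRD2 at 50 nM lay above DMSO in Ku and overlapped it in Cov.

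A gene was called changed where limma, fitted to log2(FPKM + 1) over all 14251 active genes, gave an adjusted p (Benjamini-Hochberg) below 0.001 together with a change of over 0.5 on the log2 scale. At 50 nM, 1 of 9 genes (KAT8) was called lower in Ku, where 11.3% of active genes were, and 7 of 9 in Cov, where 70.5% were. At 250 nM, 7 of 9 were called lower in Ku against a background of 68.6%, and 9 of 9 in Cov against 84%. No member was called higher, beside backgrounds of 0.0842% in Ku and 0.0772% in Cov at 50 nM and 0.0491% and 0.105% at 250 nM. At 250 nM the members' median log2 fold change was -2.26 in Ku and -2.40 in Cov, beside -1.11 and -1.31 for all active genes, so the counts were near the background while the median size was larger. At 50 nM the medians of members and active genes were -0.40 and -0.40 in Ku, and -1.11 and -0.85 in Cov. These fold changes understate those of low genes because of the pseudocount of 1, and an exact permutation test of any single gene, 2 libraries against 2, cannot go below a two-sided p of 0.33.

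**Figure D2:**
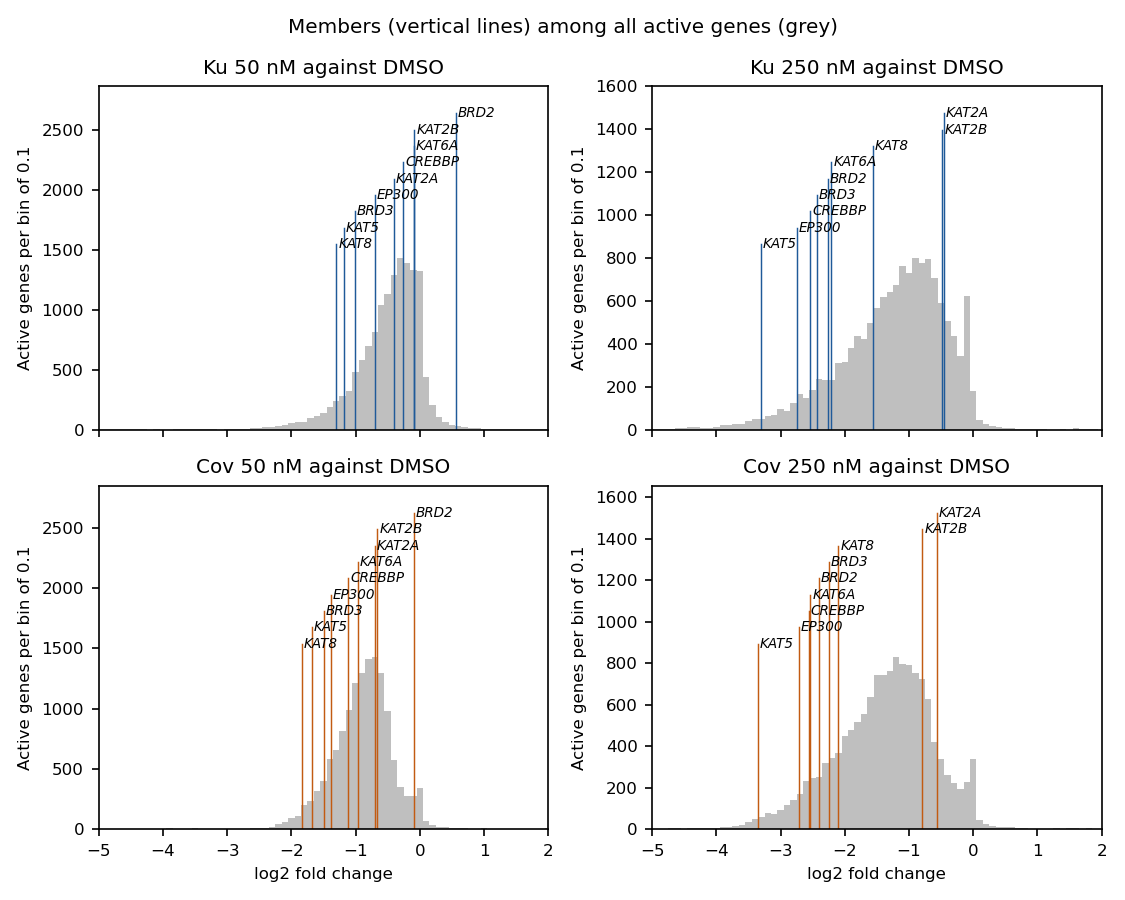
Log2 fold changes of all active genes (grey, genes per bin of 0.1) with the members as vertical lines, for each line and dose against DMSO. At 250 nM 7 of the 9 members in each line lay below the median of active genes, which was -1.11 in Ku and -1.31 in Cov, while KAT2A and KAT2B lay above it.

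The spike-in scale carried the general fall. When libraries were instead scaled to equal medians, the median of active genes was 0.29 in Ku and 0.31 in Cov at 250 nM, and it was 0.10 and 0.12 at 50 nM. Median-of-ratios scaling gave medians within 0.04 of 0 in every comparison. Under equal medians the members' calls at 250 nM became 5 lower and 2 higher in each line, with member medians of -0.76 in Ku and -0.59 in Cov, and under median-of-ratios 6 lower and 0 higher in Ku and 6 lower and 1 higher in Cov, with medians of -1.15 and -0.96. Of all active genes at 250 nM, 11.6% were then called lower and 26.9% higher in Ku and 11.3% and 26.4% in Cov under equal medians, and 19% and 11.1% in Ku and 18.9% and 8.57% in Cov under median-of-ratios. At 50 nM either scaling gave 0 lower and 1 higher (BRD2) in each line, where at most 2.72% of active genes were called lower and at most 0.519% higher. Directions below are on the spike-in scale. Those of members and of list medians at 250 nM that turn with scaling are named where they occur. For single genes outside the members, values under the other scalings are not given, and their directions may turn as well.

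BRD2 (chr6:32936371-32949282, plus strand, with this and the following positions in GRCh37) encodes a BET reader of acetylated histones. Its FPKM was 107.6 and 96.02 in the Ku DMSO libraries, 155.3 and 145.6 at 50 nM, and 19.6 and 21.2 at 250 nM. In Cov the values were 136.0 and 149.7, then 130.0 and 137.0, then 26.8 and 25.7. Thus BRD2 mRNA in the Ku 50 nM libraries was above both DMSO libraries, in Cov the groups overlapped at 50 nM, and at 250 nM both lines were below DMSO with no overlap.
At 50 nM the log2 fold change was 0.56 (SE 0.0818) in Ku, larger than that of 99.05% of active genes, but its limma adjusted p of 0.00251 missed the threshold. In Cov it was -0.096 (adjusted p = 0.309), above 95.3% of active genes. Under equal-median and median-of-ratios scaling BRD2 was called higher at 50 nM in both lines, at 1.26 and 1.11 in Ku and 1.12 and 0.93 in Cov, so that its direction in Cov turned. At 250 nM BRD2 fell to 20.06% of DMSO in Ku and 18.4% in Cov, with log2 fold changes of -2.26 (SE 0.0818, adjusted p = 7.44e-06) and -2.40 (SE 0.0848, adjusted p = 8.22e-07). Equal-median scaling ended both calls, with values of -0.33 and -0.36. From 50 to 250 nM, BRD2 dropped more than nearly any other gene: its log2 fold changes of -2.82 in Ku and -2.30 in Cov were undercut by 0.863% and 0.610% of active genes.

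BRD3 (chr9:136895427-136933657, minus strand), the other BET gene here, was below DMSO at both doses. Ku libraries held 8.94 and 8.58 FPKM in DMSO, 4.07 and 3.64 at 50 nM, and 0.785 and 0.831 at 250 nM. Cov libraries held 11.3 and 12.2, then 3.25 and 3.79, then 1.61 and 1.73. The 3 doses were separated without overlap in each line.
BRD3 was at 44.02% of DMSO in Ku at 50 nM (log2 fold change -1.01, limma adjusted p = 0.00128, not called) and fell to 30.0% in Cov (-1.49, adjusted p = 2.8e-05). At 250 nM it was at 9.23% and 14.2% of DMSO, with log2 fold changes of -2.43 (SE 0.121, adjusted p = 1.33e-05) and -2.25 (adjusted p = 1.37e-06). BRD3 shares 4362 bases with BRD3OS on the opposite strand. BRD3OS itself changed by -1.88 in Ku and -1.55 in Cov at 250 nM on the log2 scale. The library kit keeps strand but the strand setting used in quantification is not given in the sources used here, and without strand the reads of overlapping genes cannot be told apart.

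The contrast between the BET paralogs was seen in their ratio within each library. BRD2 exceeded BRD3 by 12.03- and 11.2-fold in the Ku DMSO libraries, by 38.2- and 39.98-fold at 50 nM, and by 25.01- and 25.5-fold at 250 nM. In Cov the ratios were 12.03 and 12.3, then 39.99 and 36.1, then 16.6 and 14.9. Scaling of a library cancels in such a ratio, and both treated groups lay above DMSO without overlap in both lines, with the higher ratios at 50 nM.

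**Figure D3:**
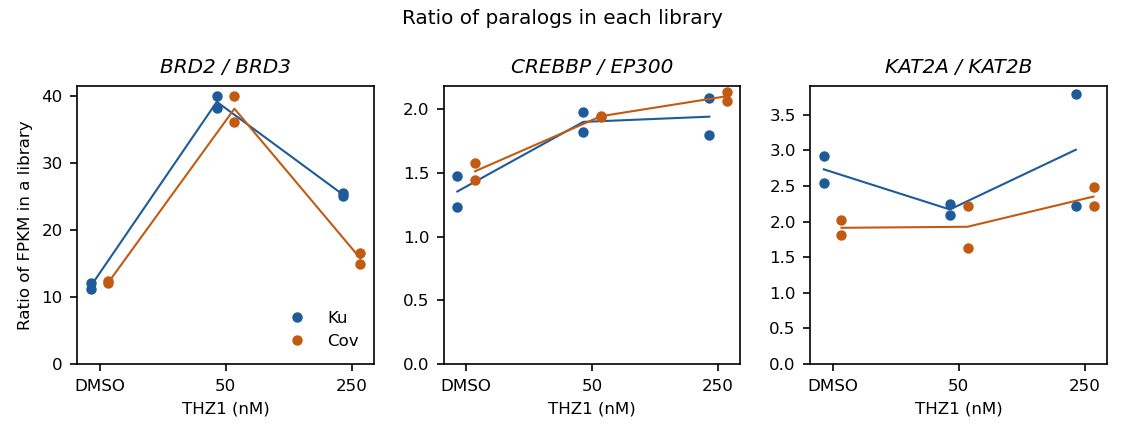
Ratio of FPKM between paralogs in each library (linear axis from 0) by THZ1 dose in nM, for Ku and Cov. BRD2/BRD3 was 11.2 to 12.3 in DMSO and 36.1 to 39.99 at 50 nM, and KAT2A/KAT2B was 1.80 to 2.92 in DMSO and 1.63 to 2.25 at 50 nM.

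EP300 (chr22:41488596-41576081, plus strand) encodes the enhancer co-activator p300. Its FPKM in Ku was 17.1 and 12.7 in DMSO, 9.61 and 7.84 at 50 nM and 1.20 and 1.499 at 250 nM. In Cov it was 13.8 and 15.8, then 4.84 and 5.200, then 1.38 and 1.41. Each dose lay below the one before it in both lines.
The 50 nM fold was -0.70 on the log2 scale in Ku (adjusted p = 0.0211, not called) and -1.39 in Cov (adjusted p = 3.37e-05). EP300 fell at 250 nM to 9.05% of DMSO in Ku and 9.45% in Cov, by limma log2 fold changes of -2.75 (SE 0.186, adjusted p = 3.12e-05) and -2.72 (adjusted p = 9.41e-07).

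CREBBP (chr16:3775055-3930714, minus strand), which encodes CBP, was less lowered at 50 nM. Ku values were 21.1 and 18.7 FPKM in DMSO, 17.5 and 15.5 at 50 nM and 2.50 and 2.69 at 250 nM. Cov values were 21.7 and 22.9, then 9.39 and 10.1, then 2.85 and 3.02. No groups overlapped, although in Ku the gap between DMSO and 50 nM was narrow.
The log2 fold change at 50 nM was -0.26 in Ku (limma adjusted p = 0.112), a direction that turned under both other scalings (0.40 and 0.27), and -1.11 in Cov (adjusted p = 4.52e-05), where equal-median scaling gave 0.030. At 250 nM CREBBP was at 13.0% of DMSO in Ku (-2.54, adjusted p = 1.16e-05) and 13.2% in Cov (-2.56, adjusted p = 8.6e-07). The CREBBP/EP300 ratio was 1.23 and 1.47 in Ku DMSO, 1.82 and 1.98 at 50 nM and 2.09 and 1.79 at 250 nM. Cov ratios were 1.58 and 1.45, 1.94 and 1.947, and 2.07 and 2.14. Treated libraries had the higher ratio in both lines without overlap with DMSO.

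KAT2A (chr17:40265129-40273385, minus strand), the SAGA and ATAC enzyme GCN5, was with KAT2B among the members least lowered at 250 nM. Its FPKM in Ku was 15.7 and 15.8 in DMSO, 12.1 and 11.3 at 50 nM, and 8.996 and 13.9 at 250 nM. In Cov it was 21.0 and 20.5, then 12.6 and 12.2, then 13.4 and 14.1. All treated libraries lay below DMSO, the Ku 250 nM duplicates spanned those at 50 nM, and in Cov the 250 nM libraries were above those at 50 nM. KAT2A shares 1694 bases with another protein-coding gene on the same strand, and how reads there were assigned is not given in the sources used here.
At 250 nM KAT2A retained 72.8% of its DMSO level in Ku (log2 fold change -0.46, SE 0.19, adjusted p = 0.0603) and 66.2% in Cov (-0.56, SE 0.0847, adjusted p = 0.000405, called). These values exceeded those of 84.0% and 87.4% of active genes. In Ku the duplicates at 250 nM stood far apart, and the log2 fold change was -0.17 without the first of them and -0.74 without the second, where KAT2B had -0.54 and -0.42, so the order of KAT2A and KAT2B in Ku rests on 1 library. The Cov call at 250 nM was lost without either DMSO or either 250 nM library, with adjusted p up to 0.00445. At 50 nM the log2 fold changes were -0.40 in Ku (adjusted p = 0.121) and -0.70 in Cov (adjusted p = 0.000181), the latter call being lost without either DMSO library. Every one of these directions turned under equal-median and median-of-ratios scaling, which at 250 nM gave 1.39 and 0.90 in Ku and 1.39 and 0.96 in Cov.

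KAT2B (chr3:20081938-20195896, plus strand), encoding PCAF, was also little lowered. Ku libraries held 6.16 and 5.41 FPKM in DMSO, 5.79 and 5.02 at 50 nM and 4.05 and 3.66 at 250 nM. Cov libraries held 10.4 and 11.4, then 5.65 and 7.48, then 6.03 and 5.69. In Ku DMSO and 50 nM overlapped, and in Cov the treated doses overlapped each other but not DMSO.
By limma the log2 fold change at 250 nM was -0.48 in Ku (SE 0.137, adjusted p = 0.0155, not called) and -0.79 in Cov (SE 0.135, adjusted p = 0.000822, called), leaving 66.7% and 53.8% of DMSO. Without either DMSO or either 250 nM library the Cov call was lost, with adjusted p up to 0.00831. At 50 nM KAT2B was at 93.4% of DMSO in Ku (-0.084, adjusted p = 0.634) and at 60.3% in Cov (-0.66, adjusted p = 0.00243, not called). Without the second Cov 50 nM library, KAT2B was called lower at -0.84. All 4 directions turned under both other scalings. The KAT2A/KAT2B ratio was 2.54 and 2.92 in Ku DMSO, 2.09 and 2.25 at 50 nM and 2.22 and 3.79 at 250 nM, and in Cov it was 2.02 and 1.80, 2.23 and 1.63, and 2.22 and 2.49. Against DMSO this ratio was lower without overlap at 50 nM in Ku and higher without overlap at 250 nM in Cov, and the groups overlapped at 250 nM in Ku and at 50 nM in Cov.

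KAT5 (chr11:65479467-65487075, plus strand), the TIP60 enzyme, was the most lowered member at 250 nM on the log2(FPKM + 1) scale, while as a share of the DMSO level KAT6A was slightly lower than KAT5 in Cov. Its FPKM in Ku was 32.2 and 26.9 in DMSO, 14.1 and 10.96 at 50 nM and 2.05 and 2.10 at 250 nM. In Cov it was 66.3 and 66.9, then 19.1 and 21.1, then 5.59 and 5.60. The doses were separated in both lines.
KAT5 retained 7.03% of DMSO in Ku and 8.40% in Cov at 250 nM, with limma log2 fold changes of -3.31 (SE 0.155, adjusted p = 1.18e-05) and -3.36 (SE 0.0867, adjusted p = 8.16e-07). Lower values were found for 2.18% and 1.37% of active genes. At 50 nM the values were -1.18 in Ku (adjusted p = 0.00174, not called) and -1.68 in Cov (adjusted p = 2.13e-05). KAT5 shares 5600 bases with RNASEH2C on the opposite strand, whose mean went from 29.7 to 11.9 FPKM in Ku and from 45.2 to 20.6 in Cov at 250 nM.

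KAT6A (chr8:41786997-41909512, minus strand), the MOZ enzyme, was near its DMSO level at 50 nM in Ku. Ku values were 9.45 and 8.26 FPKM in DMSO, 8.88 and 7.59 at 50 nM and 1.06 and 1.20 at 250 nM. Cov values were 8.996 and 9.57, then 3.81 and 4.78, then 0.821 and 0.722. DMSO and 50 nM overlapped in Ku and not in Cov.
At 50 nM the log2 fold change was -0.095 in Ku (limma adjusted p = 0.599), which turned to 0.51 and 0.39 under the other scalings, and -0.96 in Cov (adjusted p = 0.000203), which was 0.086 under equal medians. The Cov call was lost without either DMSO library. At 250 nM KAT6A was at 12.8% and 8.31% of DMSO, by -2.21 (adjusted p = 2.6e-05) and -2.54 (adjusted p = 1.33e-06).

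KAT8 (chr16:31125810-31142714, plus strand), the MOF enzyme of the MSL and NSL complexes, did most of its falling by 50 nM. In Ku it was at 18.5 and 17.2 FPKM in DMSO, 7.22 and 6.15 at 50 nM and 5.47 and 5.26 at 250 nM. In Cov it was at 19.9 and 22.1, then 5.21 and 5.14, then 4.40 and 3.87. The doses did not overlap, but the step from 50 to 250 nM was small. Stretches of 670 and 1830 bases of KAT8 are shared with noncoding RNA genes on the same strand, again with the assignment of reads not given.
KAT8 fell at 50 nM to 37.4% of DMSO in Ku (log2 fold change -1.30, SE 0.119, adjusted p = 0.000591) and 24.7% in Cov (-1.83, adjusted p = 2.16e-05), where 3.23% of active genes had lower values. The Ku call was lost without any 1 of the 6 Ku libraries, at adjusted p of 0.00243 to 0.00494. At 250 nM the level was 30.0% and 19.7% of DMSO, by limma -1.57 (adjusted p = 4.58e-05) and -2.10 (adjusted p = 1.59e-06). Equal-median scaling gave 0.23 in Ku, turning the direction, and -0.24 in Cov, and median-of-ratios scaling gave -0.25 and -0.66, with no call in either.

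**Figure D4:**
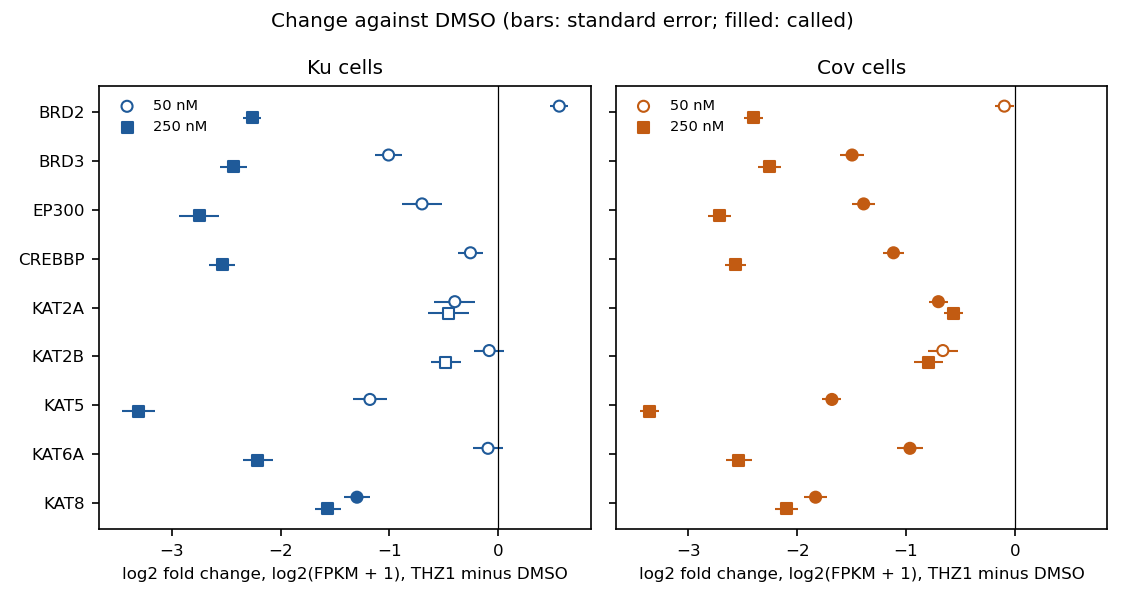
Log2 fold change on log2(FPKM + 1) against DMSO for each gene at 50 and 250 nM THZ1 in Ku and Cov, with bars for the limma standard error and filled points for called genes. KAT5 reached -3.31 and -3.36 at 250 nM, and KAT2A only -0.46 and -0.56, a direction that turned when libraries were scaled to equal medians.

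The step from 50 to 250 nM separated the members further. BRD2, BRD3, EP300, CREBBP, KAT5 and KAT6A, 6 of the 9, were called lower in Ku, where 36% of active genes were, and likewise 6 of 9 in Cov, where 24.4% were. None was called higher, beside 0.0421% and 0.0842% of active genes. BRD3 changed by -1.42 in Ku and -0.76 in Cov, EP300 by -2.05 and -1.33, CREBBP by -2.28 and -1.45, KAT5 by -2.13 and -1.68, and KAT6A by -2.11 and -1.57 on the log2 scale. In Ku the count went down to 2 without the first 50 nM library or without either 250 nM library. The BRD3 call in Cov was lost in 5 of 6 fits that left out 1 library. KAT8 changed by -0.27 in each line (limma adjusted p = 0.0859 in Ku and 0.0588 in Cov). KAT2A changed by -0.056 in Ku (adjusted p = 0.804) and 0.14 in Cov (adjusted p = 0.191), and KAT2B by -0.40 (adjusted p = 0.04) and -0.13 (adjusted p = 0.437), none of them called. The directions of KAT8 and KAT2B in both lines, and of KAT2A in Ku, turned under both other scalings. The BRD3 call was lost under equal medians in Ku (-0.69) and under both scalings in Cov (-0.17 and -0.37), and KAT2A was called higher in Cov under equal medians (0.95). Active genes had medians of -0.62 and -0.41.

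The whole profile of each gene over the 12 libraries, taken as log2(FPKM + 1) minus the line's DMSO mean, was compared with every other active gene by the root mean square difference. Among the members, CREBBP and KAT6A were closest (0.169), followed by KAT2A and KAT2B (0.236) and by EP300 and CREBBP (0.246). BRD2 and BRD3 lay 0.864 apart, and KAT2A and KAT5 were the farthest pair at 1.71. Among genes outside the members, the nearest was FAM108B1 for BRD2 (0.161), XYLT2 for BRD3 (0.0471), SPRED2 for EP300 (0.0526), ZNF394 for CREBBP (0.0760), ATG16L2 for KAT2A (0.0952), PRSS12 for KAT2B (0.0580), NUP50 for KAT6A (0.0805) and BNC1 for KAT8 (0.0740). A typical active gene lay 0.48 to 1.35 from a member, as the median.

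The partners of these enzymes were also measured, beside backgrounds of 68.6% in Ku and 84% in Cov called lower at 250 nM. Of 20 other SAGA and ATAC subunits 19 were called lower in each line, with median log2 fold changes of -2.18 in Ku and -2.09 in Cov that stayed below 0 under equal-median (-0.40 and -0.29) and median-of-ratios scaling (-0.88 and -0.72). SGF29, a reader of methylated histone H3 in SAGA, was lowest in Ku at -3.12 and TADA1 lowest in Cov at -3.10, while SUPT3H was not called in either (-0.26 and -0.58). KAT2A and KAT2B had -0.46 and -0.48 in Ku and -0.56 and -0.79 in Cov. All 15 TIP60 subunits were called lower in both lines, with medians of -1.33 and -1.66 that turned to 0.34 and 0.18 under equal medians and were -0.15 and -0.23 under median-of-ratios. They ranged from MRGBP at -3.04 to MORF4L1 at -0.62 in Ku and from EPC1 at -2.93 to the helicase RUVBL2 at -1.002 in Cov.
All 8 MOZ and HBO1 subunits were called lower in both lines, with medians of -2.20 and -2.26, with -0.76 and -0.52 under equal medians and -1.17 and -0.92 under median-of-ratios. The scaffold BRPF1 was the lowest at -2.70 and -3.38, and the least lowered were ING4 in Ku (-1.16) and JADE3 in Cov (-1.64). Of 11 MSL and NSL subunits 9 were called lower in Ku and 11 in Cov, with medians of -1.77 and -1.88 that turned to 0.056 and 0.069 under equal medians and were -0.44 and -0.36 under median-of-ratios. PHF20 was lowest in Ku at -2.58 and KANSL2 in Cov at -2.69, and the highest values were those of MSL3 in Ku (-1.08, not called) and OGT in Cov (-0.69).

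Of 11 other BET and acetyltransferase genes, 10 were active, and 9 were called lower in Ku and 10 in Cov, with medians of -1.54 and -1.79 that were 0.079 (turned) and -0.040 under equal medians and -0.37 and -0.43 under median-of-ratios. KAT14 was lowest in Ku (-2.90) and GTF3C4 in Cov (-3.01). HAT1, which acetylates newly made histone H4, was the least lowered in Ku (-0.42, not called), and NCOA1 in Cov (-1.25). Of the opposing histone deacetylases, 12 of 17 were called lower in Ku and 16 of 17 in Cov, with medians of -0.94 and -1.01 beside -1.11 and -1.31 for all active genes, and both medians turned under equal-median (0.42 and 0.47) and median-of-ratios scaling (0.0072 and 0.11). HDAC9 at -2.38 and HDAC1 at -0.19 (not called) bounded them in Ku, and SIRT1 at -3.16 and HDAC10 at -0.56 (not called) in Cov. No gene of these lists was called higher in any comparison on the spike-in scale. Calls under the other scalings at 250 nM, read beside the shares of all active genes given above, went both ways. Under equal medians SAGA and ATAC subunits had 7 lower and 2 higher in Ku and 3 and 2 in Cov, TIP60 subunits 4 and 5 in Ku and 3 and 5 in Cov, and deacetylases 2 and 7 in each line. MOZ and HBO1 subunits had 4 and 0 in Ku and 2 and 0 in Cov, MSL and NSL subunits 2 and 0 in Ku and 3 and 1 in Cov, and the other BET and acetyltransferase genes 1 and 2 in Ku and 3 and 1 in Cov. Under median-of-ratios, lower and higher calls were 12 and 0 in Ku and 9 and 1 in Cov for SAGA and ATAC, 4 and 3 and then 3 and 1 for TIP60, 5 and 0 and then 6 and 0 for MOZ and HBO1, 4 and 0 and then 4 and 1 for MSL and NSL, 2 and 1 and then 4 and 0 for the other BET and acetyltransferase genes, and 3 and 5 and then 2 and 4 for the deacetylases.
At 50 nM the lists differed in their counts between lines, without a test of that difference. In Ku 4 SAGA and ATAC, 2 TIP60, 1 MOZ and HBO1, 1 MSL and NSL, 1 other BET and acetyltransferase gene and 2 deacetylases were called lower. The counts in Cov were 18, 13, 8, 10, 8 and 11, read beside backgrounds of 11.3% and 70.5%. Under equal-median scaling 0 genes of these lists were called lower in Cov, and under median-of-ratios 1, among the other BET and acetyltransferase genes. In Ku equal-median scaling left 1 gene, of that same list, and median-of-ratios 2 SAGA and ATAC, 2 TIP60 and 1 of that list, and each scaling added 1 gene of that list called higher in Ku.

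**Figure D5:**
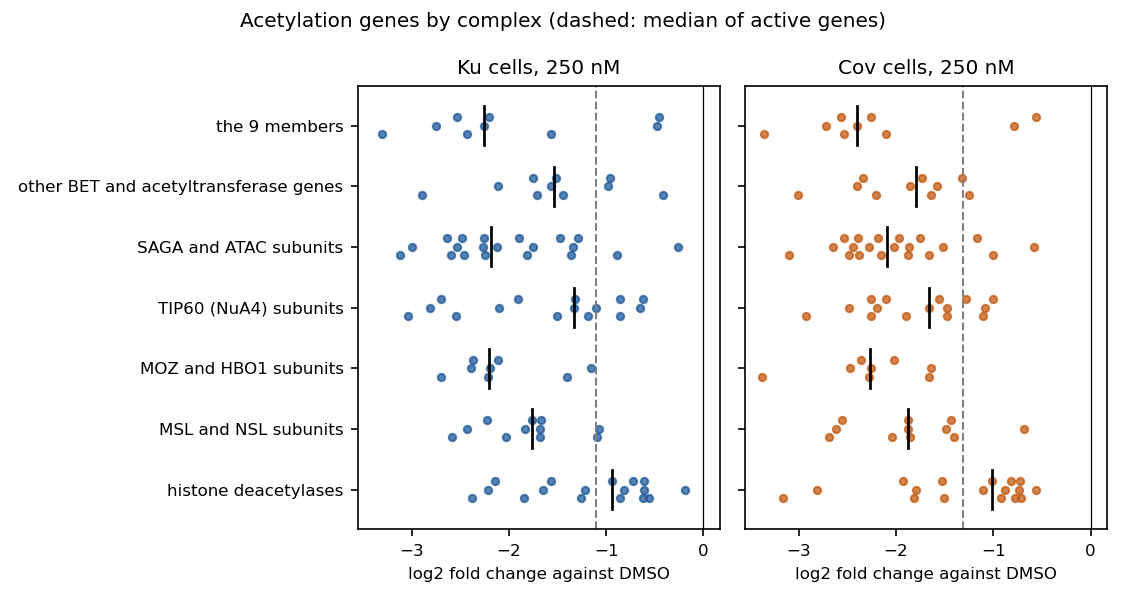
Log2 fold change at 250 nM THZ1 against DMSO for each active gene of the members and the 6 other lists, in Ku and Cov, with a solid tick at each list's median and a dashed line at the median of active genes (-1.11 and -1.31). SAGA and ATAC subunits centred on -2.18 and -2.09 and histone deacetylases on -0.94 and -1.01, the latter turning above 0 under equal-median scaling.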

How the data were processed

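Polyadenylated RNA of 12 libraries (2 per group) was sequenced. The authors prepared stranded libraries, aligned single-end reads to hg19 with HISAT, obtained FPKM with Cufflinks and Cuffnorm, and scaled the deposited FPKM values to ERCC spike-ins (92 rows, left out here) added to cell-count-normalized RNA. Versions and the strand setting are not given in the sources used here. Each line has its own table, so lines were not tested against each other, and depth is unknown.

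In R 4.3.3 with limma 3.58.1 (lmFit, then eBayes with trend), log2(FPKM + 1) was fitted per line over 3 groups of 2 libraries, with Benjamini-Hochberg adjustment over 14251 active genes and thresholds of 0.001 and 0.5 (log2). The model was tested on simulated data. All columns of samples were used. Groups came from the labels, and gene positions from GENCODE in GRCh37.

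The genes named were the 9 members, the lowest and highest active gene of each other list at 250 nM in each line, and each member's nearest nonmember gene, of which that of KAT5 is not reported here. Members and lists were chosen with earlier results of these data known. The 5 subunits or enzymes listed under older symbols (KAT14, SGF29, JADE1, JADE2 and JADE3) were matched by them. Alternatives changed the pseudocount, minimum FPKM, scaling, trend, thresholds, groups fitted and libraries, and added a replicate block. Figures were drawn with matplotlib 3.10.9.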

Additional observations from a re-analysis of the deposited data

Results flagged for a closer look

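On the spike-in scale, in 5 gene comparisons both treated libraries of Ku lay on one side of their reference mean and both of Cov on the other. These differences between lines were not tested, since each line has its own normalized table. At 50 nM against DMSO, the log2 fold change of BRD2 was 0.56 in Ku and -0.096 in Cov. GTF3C4 had 0.51 and -0.65, NCOA1 0.081 and -0.64, and HDAC1 0.12 and -0.49. At 250 nM against 50 nM, SUPT3H had -0.23 in Ku and 0.085 in Cov. None of these values was called. By limma the adjusted p in Ku was 0.578 for NCOA1, 0.232 for HDAC1, 0.0179 for GTF3C4, 0.00251 for BRD2 and 0.109 for SUPT3H. In Cov at 50 nM it was 0.00196 for NCOA1, 0.00128 for HDAC1, 0.00112 for GTF3C4 and 0.309 for BRD2. Under equal-median and median-of-ratios scaling BRD2 in Cov turned to 1.12 and 0.93. Its Ku values were then 1.26 and 1.11, so the lines no longer differed in direction. Cov list medians at 50 nM turned to 0.18 and 0.040 (other BET and acetyltransferase genes) and to 0.27 and 0.10 (deacetylases). Such values are not given for GTF3C4, NCOA1, HDAC1 and SUPT3H, whose directions may turn as well.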

How the results depend on the processing

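A pseudocount of 0.1 and a minimum on group means changed no member's call in any of 54 gene comparisons. For Ku at 50 nM, the 1 gene called lower became 2 with an FPKM minimum of 10 or without the trend, 4 at adjusted p under 0.05, and 0 with no minimum, with both other scalings, with only the groups compared, and without any 1 library (0 to 0). A gene called higher there (BRD2) appeared under both scalings and at adjusted p under 0.05 (1 each). With no minimum 5 member calls in all were lost, those of KAT8 in Ku at 50 nM, KAT2B in Cov at 250 nM, BRD3 and EP300 in Ku and BRD3 in Cov from 50 to 250 nM, and with only the groups compared 2 were, KAT8 in Ku at 50 nM and BRD3 in Cov from 50 to 250 nM. Leaving out 1 library gave 7 to 7 lower at 250 nM and 2 to 6 from 50 to 250 nM in Ku, and 5 to 8, 7 to 9 and 5 to 6 in Cov for 50 nM, 250 nM and their difference, with 0 higher throughout.

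Equal-median and median-of-ratios scaling took the lower count in Cov at 50 nM from 7 to 0, with 1 higher under each. At 250 nM equal-median scaling gave 5 lower in Cov and 2 higher in each line, median-of-ratios 1 higher in Cov, and equal-median scaling 1 higher in Cov from 50 to 250 nM.

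Directions turned under scaling, with log2 values given as equal-median then median-of-ratios. At 50 nM in Ku these were CREBBP 0.40 and 0.27, KAT2A 0.25 and 0.12, KAT2B 0.48 and 0.37, and KAT6A 0.51 and 0.39. At 250 nM in Ku they were KAT2A 1.39 and 0.90, KAT2B 1.16 and 0.73, and KAT8 0.23 (equal-median alone). From 50 to 250 nM in Ku they were KAT2A 1.14 and 0.78, KAT2B 0.68 and 0.35, and KAT8 0.86 and 0.52. At 50 nM in Cov they were BRD2 1.12 and 0.93, KAT2A 0.44 and 0.26, KAT2B 0.41 and 0.25, and, equal-median alone, CREBBP 0.030 and KAT6A 0.086. At 250 nM in Cov they were KAT2A 1.39 and 0.96 and KAT2B 1.04 and 0.64, and from 50 to 250 nM KAT2B 0.63 and 0.39 and KAT8 0.46 and 0.22. Small values also turned on 1 library: at 50 nM in Ku KAT2B ranged from -0.17 to 0.0038 and KAT6A from -0.20 to 0.0061 (highest without the second 50 nM library), from 50 to 250 nM in Ku KAT2A from -0.34 to 0.23 (highest without the first 250 nM library), and in Cov KAT2B from -0.31 to 0.044 (highest without the second 50 nM library). The cause was not tested.

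Same-numbered libraries did not deviate together (correlations -0.0087 to 0.0003 in Ku and -0.0703 to 0.0282 in Cov). This cannot show whether they shared a culture or a day. With the replicate block, the lower counts were 1, 7 and 6 in Ku and 6, 7 and 5 in Cov for 50 nM, 250 nM and 250 against 50 nM. The block lost 4 Cov calls, with limma adjusted p of 0.00101 (KAT6A, 50 nM), 0.0015 (KAT2A, 250 nM), 0.00228 (KAT2B, 250 nM) and 0.00249 (BRD3, 250 against 50 nM).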
